A study of Mus musculus with 22 samples.

Results

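The genes described here are the metallothioneins Mt1, Mt2 and Mt3, the metal-responsive transcription factor Mtf1, the zinc exporter Slc30a1 and the zinc importer Slc39a14. They are 6 of the 20018 genes that could be named on the array through a RefSeq accession. Together they had 8 probes named in this way, 3 for Mtf1 and 1 for each of the others. Another probe, for an Ensembl transcript that the study names Mt1, was not counted, and its values are not given here. The set was chosen because Mt2 differed strongly between doses, so the values of Mt2 are a description and carry no test. Mt2 and Slc39a14 were selected by the study on these same samples. So were Slc30a2, Il6, Fth1, Gclc, Saa1 and Adamts4 among the genes listed below. A call of Slc39a14, Slc30a2, Il6 or Fth1 is therefore not independent evidence. The same holds for any other gene that the study called on these samples.

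Lung RNA came from 22 female C57BL/6 mice, 8 weeks old, each given a single intratracheal instillation under Hypnorm and Dormicum anaesthesia. The 5 controls received the vehicle alone, 0.9% NaCl with 10% lavage fluid (BAL). Mitsui7, a multi-walled carbon nanotube (MWCNT), was given in that vehicle at 18 µg to 6 mice, at 54 µg to 5 mice and at 162 µg to 6 mice. The right lung was taken 24 hours later. On each Agilent array the RNA of 1 mouse was labelled with Cy5 and a universal mouse reference RNA, a pool of cell line RNAs, with Cy3. Every value below is therefore a log2 ratio of lung to reference, normalized within the array by loess, and its sign alone says only whether lung or reference gave more signal for that probe. The level of one gene is not compared with that of another. The arrays lay on 7 slides, 5 of which held a control.

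Metallothioneins are small cysteine-rich proteins that bind zinc and copper and buffer free metal in the cell. MTF1 senses free zinc and binds metal response elements in the promoters of Mt1, Mt2 and Slc30a1, and the same metallothionein genes also respond to glucocorticoids, to interleukin 6 through STAT3 and to oxidative stress. Proteins of the SLC30 family move zinc out of the cytosol, and SLC39 (ZIP) proteins move it in. Slc39a14 is known as an importer that liver cells produce in inflammation.

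Mt1, Mt2 and Mt3 are neighbours on mouse chromosome 8 (GRCm38.p6), where Mt3 spans bases 94152607 to 94154148, Mt2 bases 94172618 to 94173567 and Mt1 bases 94178883 to 94180327. Windows at the starts of Mt2, Mt1 and Slc30a1 are shown because these 3 are the textbook targets of MTF1 in the set. Each line holds the 250 bases before the start used by the RefSeq promoter table, 5′ to 3′ on the + strand. That start lies at the outer limit of the gene for Mt2, Mt3 and Mtf1 but inside it for Mt1 and Slc30a1, so 206 of the 250 bases for Mt1 and 84 for Slc30a1 fall within the gene. Capitals mark the core of the metal response element, searched as TGCACNC or TGCGCNC on both strands.
Mt2, chr8:94172368-94172617: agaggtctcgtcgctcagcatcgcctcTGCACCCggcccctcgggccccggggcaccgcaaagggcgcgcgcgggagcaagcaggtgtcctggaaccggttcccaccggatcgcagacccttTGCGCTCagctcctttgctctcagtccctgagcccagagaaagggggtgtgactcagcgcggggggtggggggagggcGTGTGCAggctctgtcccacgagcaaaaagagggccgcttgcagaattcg
Mt1, chr8:94178839-94179088: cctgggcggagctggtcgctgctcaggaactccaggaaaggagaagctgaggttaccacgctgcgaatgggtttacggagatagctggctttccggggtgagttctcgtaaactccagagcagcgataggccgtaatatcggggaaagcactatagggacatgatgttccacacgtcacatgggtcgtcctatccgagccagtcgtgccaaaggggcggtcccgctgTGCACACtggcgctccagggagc
Slc30a1, chr1:191906531-191906780: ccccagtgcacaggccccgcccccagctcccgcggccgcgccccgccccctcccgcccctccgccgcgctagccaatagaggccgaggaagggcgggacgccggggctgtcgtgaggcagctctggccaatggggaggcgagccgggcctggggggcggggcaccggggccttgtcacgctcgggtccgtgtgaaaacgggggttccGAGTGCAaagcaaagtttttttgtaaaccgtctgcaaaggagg

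The Mt2 window held 3 cores, the Mt1 window 1 and the Slc30a1 window 1, and the windows of Mt3 and Mtf1 held 0. The cores of Mt1 and Slc30a1 both lay in the bases that fall within the gene, so these windows are not placed like that of Mt2 and their counts of cores are not compared. Of the 27025 gene promoters of the same length in the table, 21.3% held at least 1 core and 1.28% held 3 or more. The core of the antioxidant response element (TGACNNNGC, both strands) was found in the windows of Mt2 and Slc30a1, against 10.1% of all promoters. The Slc30a1 match also lay in the bases that fall within the gene, so it is not placed like that of Mt2. The STAT core (TTCNNNGAA, the same on both strands) was found in 0 of the 5 windows, against 7.18% of all promoters. No match overlapped another. These matches describe letters in a short window and are not evidence of binding.

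**Figure D1:**
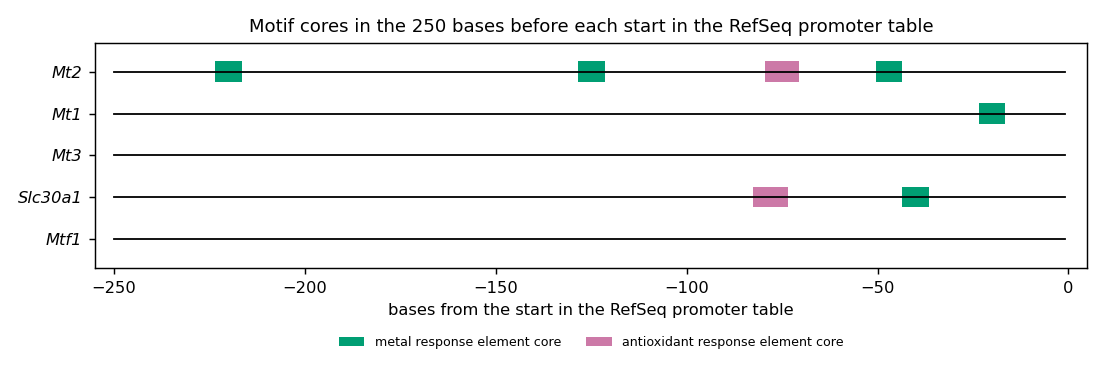
Positions of motif cores in the 250 bases before the start that the RefSeq promoter table gives for 5 genes, with the distance from that start in bases on the x axis. For Mt1 and Slc30a1 the last 206 and 84 bases lie within the gene. Green boxes are metal response element cores and pink boxes antioxidant response element cores. Mt2 has 3 green boxes, Mt1 and Slc30a1 have 1 each, and Mt3 and Mtf1 have 0.

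Mt2 was higher in lung at every dose than in any control. In the 5 controls its log2 ratio was -3.42, -2.67, -3.24, -3.57 and -3.24. At 18 µg it ran from -2.53 to -0.82 with a median of -1.83. All 6 mice given 18 µg thus lay above the highest control, and they spread over a wider range than the controls. At 54 µg the 5 mice gave -0.86, 0.25, 0.95, 0.69 and 1.98. At 162 µg the ratio ran from 1.25 to 2.26 with a median of 1.76. The 162 µg mice were the tightest of the treated groups, with an SD of 0.332 against 1.03 at 54 µg and 0.726 at 18 µg.

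The group means of Mt2 followed the order control, 18 µg, 54 µg, 162 µg, at -3.23 ± 0.34 (SD, n = 5), -1.71 ± 0.73 (SD, n = 6), 0.60 ± 1.03 (SD, n = 5) and 1.77 ± 0.33 (SD, n = 6). Adjusted for slide in limma, the log2 fold change against controls was 1.40 (SE 0.38) at 18 µg, 3.79 (SE 0.40) at 54 µg and 4.79 (SE 0.38) at 162 µg, the last equal to 27.7-fold. The step from 18 to 54 µg was 2.39 (SE 0.38) and that from 54 to 162 µg 1.00 (SE 0.38). Ranges of neighbouring doses touched: the lowest mouse at 54 µg lay just under the highest at 18 µg, and 1 of the 6 mice at 162 µg was above all mice at 54 µg. In whole lung, more transcript per cell and more cells that carry the transcript cannot be told apart.

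Mt1, the second ubiquitous metallothionein, was higher at the upper doses. Its control ratios were -2.10, -1.45, -1.62, -1.98 and -1.58. At 18 µg they ran from -1.93 to -0.54 with a median of -1.37. That range overlapped the controls, with 5 of 6 mice above all of them. At 54 µg the 4 mice with a value gave -1.34, 0.64, -0.07 and 1.20, the spot of the other one being marked as an outlier by the scanner software. At 162 µg they ran from 1.10 to 1.88 with a median of 1.44. All mice at 54 and 162 µg were above all controls, and the lowest at 54 µg was close to the highest control.

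A gene was called where its FDR adjusted p over all 55681 probes was at most 0.05, its change at least 1.5-fold and its Cy5 signal above that of the negative control spots. For Mt1 the log2 fold change was 0.39 (SE 0.30, limma adjusted p = 0.603, 95% interval -0.24 to 1.01) at 18 µg and was not called. It was 1.71 (SE 0.32, limma adjusted p = 0.0395) at 54 µg and 2.94 (SE 0.30, limma adjusted p = 9.39e-05) at 162 µg, both called. The latter is a 7.69-fold difference from controls. Between doses, Mt1 was called for 162 against 18 µg (2.56, SE 0.28, limma adjusted p = 0.000181). It was not called for 54 against 18 µg (1.33, SE 0.30, limma adjusted p = 0.135) or for 162 against 54 µg (1.23, SE 0.30, limma adjusted p = 0.236).

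Slc39a14, whose product carries zinc and non-transferrin-bound iron into the cell, was the other member that rose. The controls gave -2.07, -1.40, -1.55, -1.37 and -1.59. At 18 µg the ratio ran from -1.33 to 0.06 with a median of -0.94, and at 162 µg from 0.03 to 0.77 with a median of 0.65. At 54 µg the 5 mice gave -0.72, -0.19, -0.72, -0.02 and 0.59. Every treated mouse at each of the 3 doses lay above every control, by a small margin in the lowest mouse at 18 µg. The log2 fold change was 0.71 (SE 0.24, limma adjusted p = 0.152) at 18 µg, 1.32 (SE 0.26, limma adjusted p = 0.0478) at 54 µg and 1.98 (SE 0.24, limma adjusted p = 0.000253) at 162 µg, called at the upper 2 doses. The 162 µg mice differed by 3.94-fold from controls and by 1.27 on the log2 scale (SE 0.23, limma adjusted p = 0.0041) from the 18 µg mice. Its other steps were not called, at 0.61 (SE 0.24, limma adjusted p = 0.42) from 18 to 54 µg and 0.66 (SE 0.24, limma adjusted p = 0.455) from 54 to 162 µg.

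Among the 5 members that were tested, 0 were thus called at 18 µg and 2, Mt1 and Slc39a14, at 54 µg and at 162 µg, all of them higher. Over the 16433 named genes above background, 0.633% were called higher and 1.44% lower at 18 µg, 0.249% and 0.14% at 54 µg, and 3.34% and 3.54% at 162 µg. Every mouse lay above every control for 1.42% of these genes at 18 µg, 1.51% at 54 µg and 3.72% at 162 µg. Of the tested members this held for Slc39a14 at all doses and for Mt1 at 54 and 162 µg. Between doses 2 of the 5 members were called higher at 162 than at 18 µg, where 3.33% of all genes were. For 54 against 18 µg, 0 members were called, against 0.0183% of genes, and for 162 against 54 µg 0 members, against 0% of genes.

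The calls at 54 µg were close to the threshold. That of Mt1 held without control replicate 2, 18 µg replicates 1, 2, 4 or 6, or 54 µg replicates 1 or 5, and was lost without any other single mouse. That of Slc39a14 held only without 18 µg replicates 2 or 4 or 54 µg replicates 3 or 5. Over all 22 such fits the log2 fold change of Mt1 at 54 µg ranged from 1.45 to 2.16, with limma adjusted p up to 0.155, and that of Slc39a14 from 1.13 to 1.53, with limma adjusted p up to 0.222. Each of these 2 calls was also lost in 7 of 15 alternative settings. Settings among the 15 that change only the filter, or that leave the ratios as they are, could not change the calls of Mt1 and Slc39a14. At 162 µg both calls held without any single mouse, with limma adjusted p of at most 0.000888 for Mt1 and 0.00222 for Slc39a14. They were lost in 1 of 15 alternative settings, without normalization, with limma adjusted p = 0.105 for Mt1 and 0.295 for Slc39a14.

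**Figure D2:**
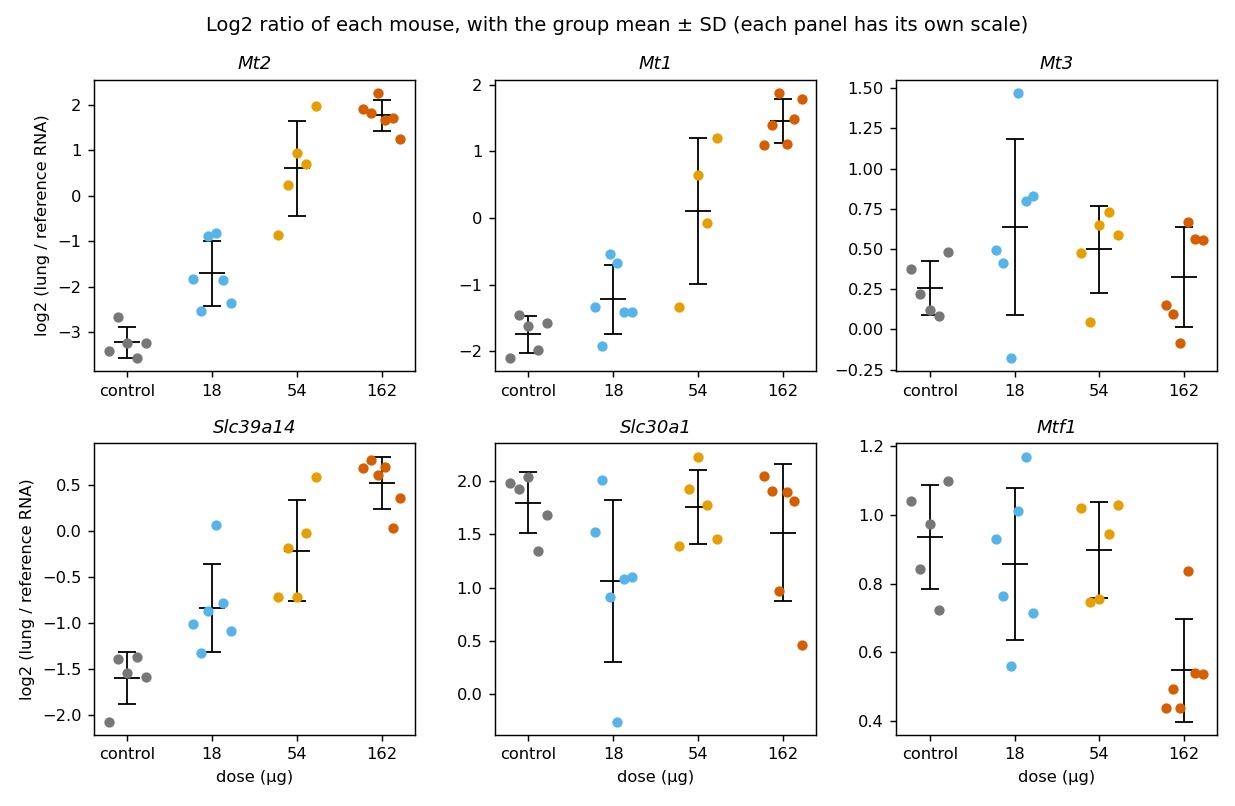
Log2 ratio of lung to reference RNA (y axis, own scale in each panel) for each of the 6 genes by dose in µg (x axis). Points are mice, and bars are the group mean ± SD. Mt2, Mt1 and Slc39a14 climb from control to 162 µg, whereas the groups of Mt3 and Slc30a1 overlap throughout.

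Within slides, where a treated mouse and a control shared 1 slide, Mt2 was above its control on every slide. The differences for Mt2 were 1.60, 0.14, 2.69 and 1.39 at 18 µg, 2.57, 3.48 and 3.93 at 54 µg, and 4.58, 5.05, 5.83 and 4.94 at 162 µg. For Mt1 they ran from -0.48 to 1.43 at 18 µg, were 0.76 and 1.5 at 54 µg, and ran from 2.54 to 3.85 at 162 µg. For Slc39a14 they ran from 0.07 to 1.06, from 1.35 to 1.57 and from 1.62 to 2.32. The 18 µg mouse on slide 2 was nearest to its control for Mt2 and Slc39a14, and the only one below it for Mt1. On the 2 slides without a control, Mt2 was at -0.82, 0.95 and 1.68 (slide 3) and at -2.37, 1.98 and 1.25 (slide 6) for 18, 54 and 162 µg, so that on slide 6 the 54 µg mouse was above the 162 µg mouse. That 162 µg array had the lowest median Cy5 signal over background of all arrays (1.18), with 53.5% of its probes above background.

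**Figure D3:**
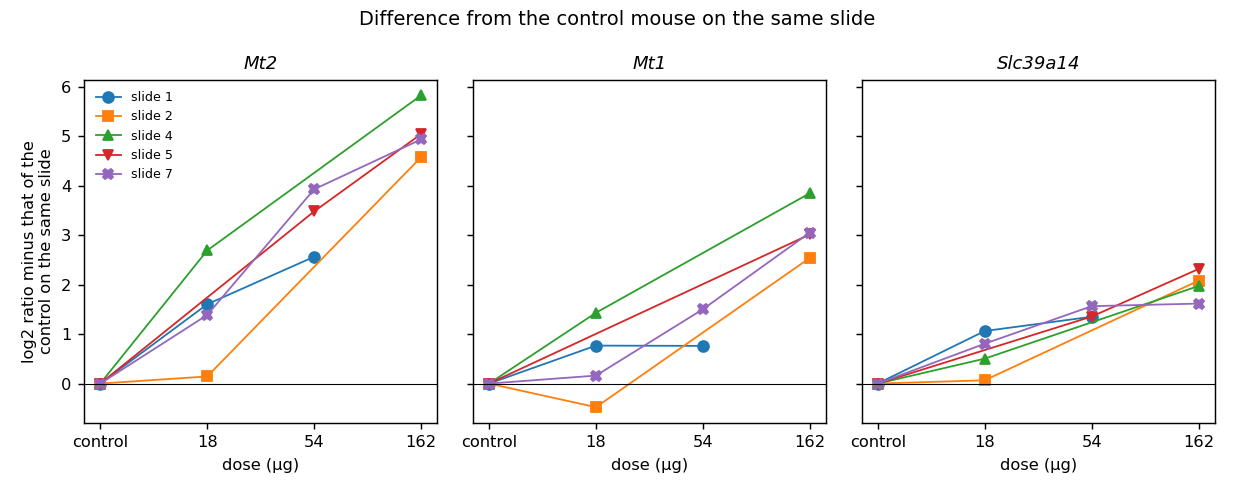
Log2 ratio of each treated mouse minus that of the control on its slide (y axis) by dose in µg (x axis) for Mt2, Mt1 and Slc39a14, 1 line per slide. All values of Mt2 and Slc39a14 are above 0, and for Mt1 the 18 µg mouse on slide 2 lies at -0.48.

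Mt3, the metallothionein best known from brain, was not called at any dose. Its control ratios ran from 0.08 to 0.48. The 18 µg mice lay between -0.18 and 1.47, the 54 µg mice between 0.05 and 0.73, and the 162 µg mice between -0.08 and 0.67. The groups overlapped throughout. Its log2 fold change was 0.19 (SE 0.12, limma adjusted p = 0.49) at 18 µg, -0.04 (SE 0.13, limma adjusted p = 0.977) at 54 µg and -0.08 (SE 0.12, limma adjusted p = 0.828) at 162 µg. The 95% interval at 162 µg, -0.33 to 0.17, leaves no room for a change of 1.5-fold in this fit. Mt4, the fourth mouse metallothionein and known from stratified epithelia, was not called either, at 0.07 (SE 0.09, limma adjusted p = 0.815) at 162 µg. It was well above background on 3 of the 6 arrays of the 162 µg group.

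Slc30a1, the plasma membrane zinc exporter and a target of MTF1 like the metallothioneins, was not called at any dose. The controls gave 1.98, 1.92, 2.04, 1.35 and 1.68. The 18 µg mice lay between -0.25 and 2.01, the 54 µg mice between 1.39 and 2.23, and the 162 µg mice between 0.46 and 2.05. The groups overlapped, and 4 of 6 mice at 18 µg lay below all controls. Its log2 fold change was -0.55 (SE 0.29, limma adjusted p = 0.395), 0.13 (SE 0.31, limma adjusted p = 0.969) and -0.13 (SE 0.29, limma adjusted p = 0.9) at the 3 doses. The 95% interval at 162 µg, -0.74 to 0.49, is wide enough to hold a decrease of 1.5-fold but excludes an increase of that size.

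Mtf1, the factor itself, was slightly lower at 162 µg on its brightest probe. There the controls gave 1.04, 0.84, 0.97, 0.72 and 1.10, and the 162 µg mice ran from 0.44 to 0.84 with a median of 0.52. Of these 6 mice 5 lay below all controls. The log2 fold change at 162 µg was -0.39 (SE 0.10, limma adjusted p = 0.0219), which passed the FDR limit but at 1.31-fold not the limit on size, so Mtf1 was not called. At 18 and 54 µg it was -0.11 (SE 0.10, limma adjusted p = 0.655) and -0.13 (SE 0.10, limma adjusted p = 0.821). The probes of Mtf1 did not give the same answer: a dimmer one gave 0.06 (SE 0.13, limma adjusted p = 0.901) at 162 µg, and the third was not above background. Averaged over all its probes, including the one not above background, Mtf1 was at -0.10 (SE 0.08, limma adjusted p = 0.632) at 162 µg.

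The other zinc transporters were taken as whole families, listed with earlier results of these data known. Of the 10 exporters of the Slc30a family 7 were above background. Of these, 0 were called higher at any dose, and Slc30a2, which loads zinc into vesicles, was called lower at 18 µg (-1.36, SE 0.25, limma adjusted p = 0.0172) and at 162 µg (-1.09, SE 0.25, limma adjusted p = 0.0135). At 54 µg Slc30a2 was at -1.01 (SE 0.26, limma adjusted p = 0.157). Over all genes above background 1.44% were called lower at 18 µg and 3.54% at 162 µg. Slc30a2 is among the genes that the study selected on these same samples, so its calls are not independent evidence. The log2 ratio of Slc30a2 lay between 1.24 and 2.71 in controls. The 18 µg mice lay between 0.19 and 1.34, the 54 µg mice between 0.49 and 1.41, and the 162 µg mice between 0.18 and 1.51. Its call at 18 µg was lost without control replicates 1 or 5 or 18 µg replicates 1 or 5 (limma adjusted p up to 0.0739), and that at 162 µg without control replicate 5 (-0.96, limma adjusted p = 0.0588). The median log2 fold change of the 7 exporters was -0.02, 0.13 and -0.05 at 18, 54 and 162 µg, beside -0.02, -0.01 and -0.0074 over all genes above background.

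Of the 14 importers of the Slc39a family 12 were above background. At 18 µg 0 were called, at 54 µg 1 (Slc39a14), and at 162 µg 3, namely Slc39a1, Slc39a8 and Slc39a14, all of them higher. Over all genes above background 0.633%, 0.249% and 3.34% were called higher at 18, 54 and 162 µg. Slc39a8, which like Slc39a14 carries zinc, iron and manganese, ran from 4.97 to 5.61 in controls and from 6.03 to 7.11 at 162 µg with no overlap. Its log2 fold change at 162 µg was 1.16 (SE 0.19, limma adjusted p = 0.0015), and the call of Slc39a8 held without any single mouse but was lost in 3 of 15 alternative settings, among them median centring (0.82, limma adjusted p = 0.199) and no normalization (0.80, limma adjusted p = 0.751). Slc39a1, a plasma membrane importer found in most cells, was only just past the limit on size at 0.60 (SE 0.15, limma adjusted p = 0.0249). The call of Slc39a1 was lost without control replicates 3 or 5, 18 µg replicate 6, 54 µg replicate 3, or 162 µg replicates 2, 3 or 4, with log2 fold changes from 0.51 to 0.60, and in 7 of 15 alternative settings, where Slc39a1 was at 0.25 (limma adjusted p = 0.843) with median centring. The median over the 12 importers was 0.10, 0.22 and 0.24 at the 3 doses. Slc39a4, the intestinal importer, was at 0.21 (SE 0.17, limma adjusted p = 0.628) at 162 µg.

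**Figure D4:**
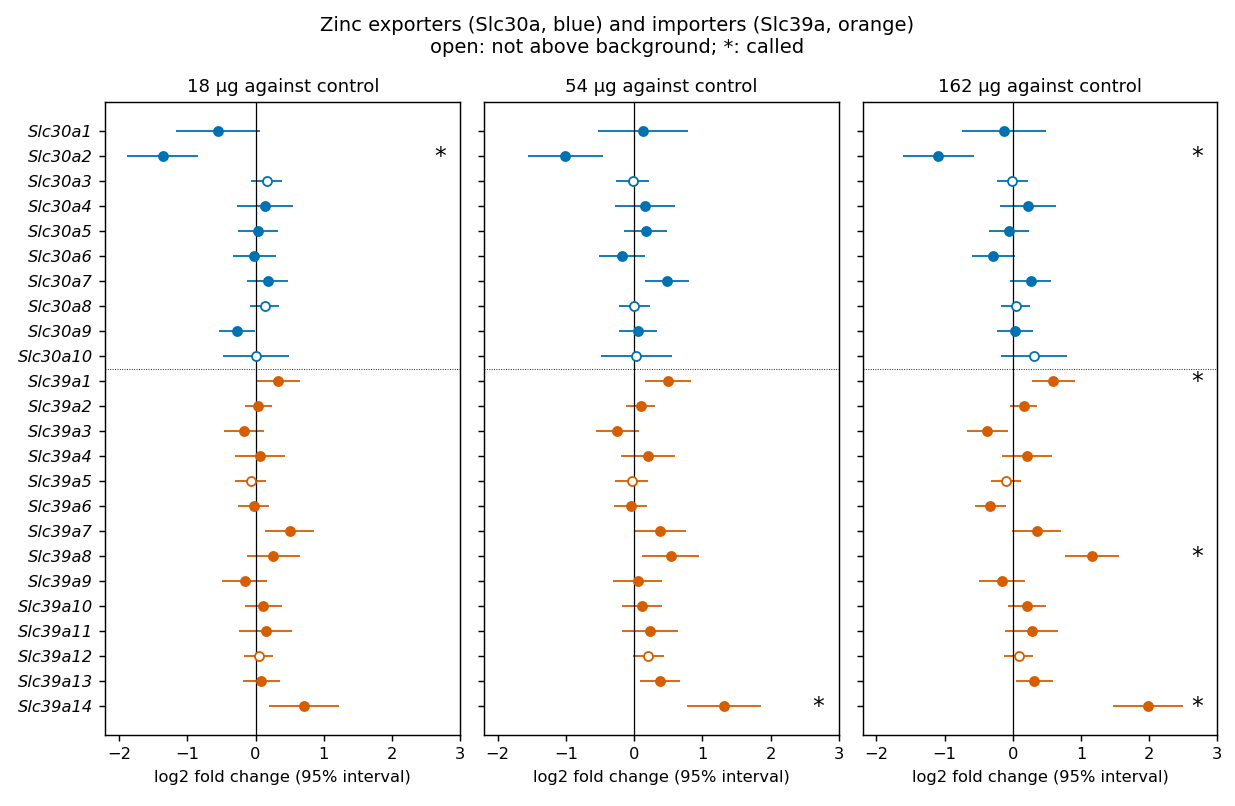
Log2 fold change against controls with its 95% interval (x axis) for each zinc exporter (blue) and importer (orange) at 18, 54 and 162 µg (panels). Open points were not above background and stars mark calls. Slc39a14 lies farthest to the right in each panel, and Slc30a2 farthest to the left.

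Of 5 other genes known to respond to MTF1 or zinc, 0 were called at any dose in limma, and their median was 0.12, -0.02 and -0.03 at 18, 54 and 162 µg. They are Gclc, Csrp1, Ndrg1, Selenow and Slc39a10. Over all genes above background 3.34% were called higher at 162 µg and fewer at the lower doses. A count of 0 among 5 genes is near that share and says little about these genes. Gclc, the catalytic subunit of glutamate cysteine ligase, was nearest, at 0.85 (SE 0.25, limma adjusted p = 0.0559) at 162 µg with all 6 mice above all controls. Csrp1, a LIM domain protein, was at -0.34 (SE 0.13, limma adjusted p = 0.144).

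In the copper and iron list 22 of 22 genes were above background. At 18 µg only Lcn2, which binds bacterial siderophores, was called (1.14, SE 0.27, limma adjusted p = 0.0485), and that call was lost in 16 of the 22 fits that each left out 1 mouse, with limma adjusted p up to 0.161. At 54 µg 0 were called. At 162 µg 3 were called higher: Lcn2 at 1.65 (SE 0.27, limma adjusted p = 0.00193), Fth1, the ferritin heavy chain, at 0.94 (SE 0.13, limma adjusted p = 0.000657), and Steap4, a metalloreductase, at 1.11 (SE 0.26, limma adjusted p = 0.0184). Fth1 ran from 0.07 to 0.65 in controls and from 0.72 to 1.40 at 162 µg. The call of Steap4 was lost without control replicates 3 or 5 or 162 µg replicate 2, with limma adjusted p up to 0.078. Among the 15 alternative settings the call at 162 µg was lost in 3 for Lcn2, 2 for Fth1 and 3 for Steap4, each time without normalization among them. The list median was 0.12, 0.20 and 0.17. Over all genes above background 0.633% were called higher at 18 µg and 3.34% at 162 µg.

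Of 20 genes of the interleukin 6, glucocorticoid and oxidative stress inputs to the metallothionein genes, 0 were called at 18 and 54 µg and 5 at 162 µg, all higher. The list median was 0.09, 0.33 and 0.47. Over all genes above background 3.34% were called higher at 162 µg. From the interleukin 6 pathway Socs3, the feedback inhibitor, was at 1.28 (SE 0.22, limma adjusted p = 0.00215), with all 6 mice above all controls. Il6 itself was not well above background on any control array, so the size of its difference is uncertain. On Cy5 signals under 1 normalization, compared as group means without a slide term or a test, Il6 was at least 8.41-fold higher at 162 µg. That bound does not hold for other settings. Among the 15 alternative settings the log2 fold change of Il6 at 162 µg went down to 2.60. The call of Il6 rests on the fit of log2 ratios to dose and slide (limma adjusted p = 0.00153).

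From the glucocorticoid targets Fkbp5, a co-chaperone of the receptor, was at 2.28 (SE 0.35, limma adjusted p = 0.00111) at 162 µg, where all 6 mice, from 0.86 to 1.53, lay above the controls, from -2.06 to 0.20. Per1, a clock gene, was at 1.75 (SE 0.42, limma adjusted p = 0.0209), but 1 control at 2.43 was as high as the treated mice, and 3 of 6 mice lay above all controls. The call of Per1 was lost without control replicates 4 or 5 or 162 µg replicate 3, with limma adjusted p up to 0.0876, and in 6 of 15 alternative settings. Txnrd1, a thioredoxin reductase, was the only called gene of the oxidative stress targets in the list, at 0.64 (SE 0.14, limma adjusted p = 0.0105). The call of Txnrd1 was lost in 5 of 15 alternative settings, with a log2 fold change of 0.31 (limma adjusted p = 0.773) under median centring. The part of these pathways in the metallothionein values was not tested.

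Over all mice, the genes most like Mt2 by Pearson correlation of log2 ratios were Mt1 (0.96, 21 mice), Pla1a (0.94), Slc39a14 (0.94), Serpina3m (0.93), Tmem37 (0.93), Tspan4 (0.92), Fst (0.91), S100a6 (0.91), Saa1 (0.91) and Arrdc4 (0.90), with 18 to 22 mice each. Of 16395 genes compared, 0.073% had a value over 0.9. The mice share dose groups and slides, and after the mean of each group was subtracted the value was 0.88 for Mt1, 0.68 for Slc39a14 and between 0.43 and 0.62 for the other 8. Mt1 thus tracked Mt2 from mouse to mouse within groups more closely than any of these. The genes most like Slc39a14 were Mt2 (0.94), Arrdc4 (0.92), Gadd45g (0.92), Adamts4 (0.91) and Saa1 (0.91). Mt3 and Slc30a1 had values of -0.0051 and -0.02 with Mt2.

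**Figure D5:**
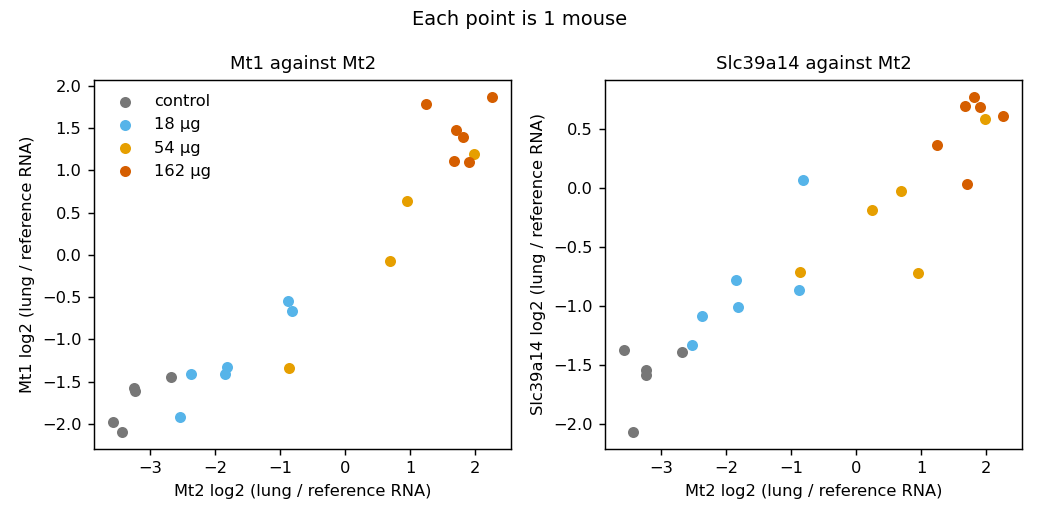
Log2 ratio of Mt1 (left) and Slc39a14 (right) on the y axis against that of Mt2 on the x axis, 1 point per mouse (21 for Mt1), coloured by dose. The points of both panels run from controls at the lower left to 162 µg at the upper right, with correlations of 0.96 and 0.94.

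Markers of lung cells bore out the tissue: the mean log2 ratio over 5 type II alveolar markers ran from 4.70 to 6.07 and that over 2 club cell markers from 5.52 to 8.51 over all arrays. Of 8 neutrophil markers 0 were called at any dose in limma, where at 162 µg 3.34% of all genes above background were called higher. The mean log2 ratio of the 8 neutrophil markers lay between 1.77 and 4.13 in controls. In the treated groups it lay between 2.12 and 2.59 (18 µg), 2.12 and 2.98 (54 µg) and 2.07 and 3.82 (162 µg). The ranges overlapped between all groups, and the medians were 2.02, 2.28, 2.57 and 2.93 from control to 162 µg. The highest control, at 4.13, lay far above the control median and widened the control range. In the paper's counts of lavage cells, neutrophils rose with dose. The lack of calls in lung RNA is therefore no evidence that neutrophil numbers stayed the same. The median log2 fold change of the 8 markers was -0.04, 0.21 and 0.45 at the 3 doses. Of 6 alveolar macrophage markers, Chil3 was called higher at 18 µg (1.73, SE 0.41, limma adjusted p = 0.0454) and Marco at 162 µg (1.51, SE 0.28, limma adjusted p = 0.00457). At 18 µg 0.633% of all genes above background were called higher. The mean of the 6 markers lay between 3.05 and 3.49 in controls and between 3.20 and 3.96 at 162 µg. Siglecf was not called, and it alone of the 6 had a lower group mean than controls at every dose. Its means were 3.47, 2.65, 2.95 and 2.72 from control to 162 µg. In the paper's lavage counts macrophages fell with dose. These calls are therefore no evidence of more macrophages. Of the club markers Cyp2f2 was called lower at 162 µg (2.01-fold, limma adjusted p = 0.00507). Over all genes above background 1.44% were called lower at 18 µg and 3.54% at 162 µg. Of the eosinophil, type II alveolar, ciliated and erythroid markers 0 were called in limma. The mean of the 3 ciliated markers nevertheless reached down to 1.64 at 18 µg and 162 µg, against 3.85 to 4.45 in controls. Of 3 eosinophil markers 2 were above background. In the paper's lavage counts eosinophils rose at every dose, most at 18 µg. The lack of eosinophil calls in lung RNA is therefore no evidence that eosinophil numbers stayed the same. The part of cell numbers in the values of Mt1, Mt2 and Slc39a14 was not tested. Between 52.1% and 83.5% of probes were above background on an array.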

How the data were processed

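The authors deposited intensity values of each spot, the median signals of both channels without background subtraction. The file headers name Feature Extraction 10.7.3.1. A second table deposited by the authors holds normalized log2 ratios, whose normalization is not given in the sources used here, and which served as an alternative. Spots marked as outliers were left out, log2 ratios of Cy5 to Cy3 were normalized by loess (span 0.3), and replicate spots of a probe were joined by their median. Of 55681 probes 26413 were named through RefSeq and 29268 were not. A gene is represented by its brightest probe.

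Dose and slide were fitted in limma 3.58.1 (R 4.3.3) over 22 arrays with 12 residual degrees of freedom, in place of the MAANOVA model of the methods. Background was the trimmed mean (5%) plus 3 trimmed SD of 308 negative control spots, to be passed in Cy5 by 80% or more of a group's arrays. The fit was tested on simulated data. Intervals cover 95%. The number of arrays limits the precision.

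The members, lists and tests were chosen with earlier results of these data known. Named are the members, list genes called at a dose, the 10 genes most like Mt2 and the 5 most like Slc39a14, and a few list genes that were not called, chosen after their values were seen. Alternatives were other background, normalization, filter, slide and probe choices and leaving out each mouse.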

Additional observations from a re-analysis of the deposited data

Results flagged for a closer look

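In 4 of 68 groups of mice tested, 1 mouse stood apart from the others of its group by Dixon's test of its gap against the range, which chance gives in about 5% of groups. For Mtf1 the 162 µg replicate 4 had a log2 ratio of 0.84, against 0.44 to 0.54 in the other 5 mice. It lay on slide 3, which held no control. For Slc39a1 control replicate 4 was at -0.15, against 0.26 to 0.43. For Steap4 the 18 µg replicate 6 was at 0.21, against 1.15 to 1.53. For Lcn2 control replicate 3 was at 3.03, against 1.97 to 2.21.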

How the results depend on the processing

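Among the 15 alternatives, Aquantile, the filter settings, the robust fit and the mean over a gene's probes could not move the log2 fold change of Mt2. It kept its sign at each dose in all the others and without any single mouse. It moved by more than the SD between mice, pooled over the 2 groups compared, at 18 µg without normalization (0.74), at 162 µg with median centring (4.20), without normalization (4.18) and with Cy5 alone (4.04), and under the block below. Without single mice it ranged from 1.09 to 1.67, 3.43 to 4.19 and 4.48 to 4.99 at 18, 54 and 162 µg, and from 1.90 to 2.75, 0.74 to 1.49 and 3.14 to 3.56 for 54 against 18, 162 against 54 and 162 against 18 µg.

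The 2 calls among tested members at 54 µg fell to 0 with normexp, median centring, no normalization, the deposited log2 table, outlier spots kept and the robust fit. With outlier spots kept, Mt1 was at 1.60 with all 5 mice (limma adjusted p = 0.0516). At 162 µg the 2 calls fell to 0 without normalization only, and those of 162 against 18 µg to 1 with median centring and to 1 without normalization. For 54 against 18 µg 1 member was called with Cy5 alone. Without single mice the members called ranged from 0 to 0, 0 to 2 and 2 to 2 at the 3 doses, and from 0 to 1, 0 to 0 and 2 to 2 between doses.

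Of the lists of zinc transporters, MTF1 responders, copper and iron genes and inputs to the metallothionein genes, 2 genes were called at 18 µg, 1 at 54 µg and 12 at 162 µg. At 18 µg this became 1 with normexp, median centring, the deposited table, outlier spots kept, no slide term, only the 2 groups compared and the robust fit, 0 without normalization and 4 with slide as a random block. At 54 µg it became 0 with normexp, median centring, no normalization, the deposited table, outlier spots kept and the robust fit, 3 with Cy5 alone, no slide term and the random block, and 10 with only the 2 groups compared, a fit with 2 residual degrees of freedom. At 162 µg it became 5 with median centring and 0 without normalization. Without single mice the counts ranged from 0 to 4, 0 to 3 and 8 to 15. The causes were not tested.

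Values near 0 changed sign. At 18 µg Mt1 was at -0.15 without normalization and -0.0092 with Cy5 alone, and Mt3 at -0.088 with median centring and -0.25 without normalization. At 54 µg Mt3 was at 0.092 without normalization, 0.12 with Cy5 alone, 0.14 in the deposited table, 0.24 without a slide term, 0.12 with the random block and 0.089 with only the 2 groups, and ranged from -0.10 to 0.020 without single mice. There Slc30a1 was at -0.042 without a slide term and -0.21 with only the 2 groups, and ranged from -0.052 to 0.36 without single mice, and Mtf1 was at 0.0093 without normalization and 0.006 averaged over its probes. At 162 µg Mt3 was at 0.055 with Cy5 alone, 0.14 in the deposited table, 0.069 without a slide term and 0.0085 with the random block, and Slc30a1 at 0.058 with Cy5 alone.

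Median centring shifted the median of all genes to -0.258, -0.035 and -0.183 at the 3 doses, and no normalization to -0.42, 0.128 and -0.206. The share of calls that were higher was 30.6%, 64.1% and 48.6% with loess, 0%, 33.3% and 23.5% with median centring, and 0% and 42.9% at 18 and 162 µg without normalization. Some of these shares rest on few calls. Without normalization there were 0 higher and 2 lower calls at 18 µg, and 3 and 4 at 162 µg. With median centring there were 0 and 107, 1 and 2, and 76 and 248 at the 3 doses. With loess there were 104 and 236, 41 and 23, and 549 and 581. Aquantile leaves the ratios as they are by construction, and the filter settings reuse the main fit. Neither could change a log2 fold change.

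Same-numbered mice of different groups had correlations of their deviations with a lowest value of -0.169 and a median of 0.171, against a median of -0.056 for other numbers and 0.261 for mice on 1 slide, and 12 of 22 mice were most like a mouse of their own number. These values do not settle whether the numbers mark pairs, and the sample labels name no pairing. The main fit did not take the numbers as pairs. The steps of Mt2 between doses and the calls at 54 µg depend on that choice. With the sample number as a replicate block, Mt2 was at 2.45 at 54 µg, 1.22 for 54 against 18 µg and 2.00 for 162 against 54 µg, the members called at 54 µg were 0, with Mt1 at 0.54 (limma adjusted p = 1) and Slc39a14 at 0.93 (limma adjusted p = 0.661), the list genes called 0 at 54 µg and 7 at 162 µg, and at 54 µg Mt3 was at 0.060 and Slc30a1 at -0.14. Array signal over background limits the dimmer probes, such as Mt4 and the other probes of Mtf1.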
